A study of Mus musculus with 2 samples.

Results

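Non-coding genes that were detected in a nucleolin RNA immunoprecipitation or in its IgG control are described here. They are the 35 gene symbols, of 23924 in the deposited table, whose transcript rows all carry a non-coding RefSeq accession and that reached 1 FPKM (fragments scaled by transcript length and by library size) in at least 1 library. The genes were thus chosen by their FPKM in these libraries. Ribosomal RNA symbols, Rmrp, Rpph1, Lars2 and symbols with the prefixes of microRNA, snoRNA, histone, MHC and ribosomal protein genes were left out by name; a few other small RNA genes still qualified, and none of them was detected. Before the level requirement 2240 symbols qualified, so 1.56% of them were detected, against 15.4% of the 20492 symbols with a coding row. The level of a gene in these 2 libraries chose it, so all levels below (written "with IgG" and "with anti-nucleolin") are a description and no test was made; the intervals given for read ratios cover the counting of reads only and call nothing.

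The RNA came from RAW 264.7 cells, a mouse macrophage line. Both libraries were made from cells depleted of mRrp6, a nuclear exosome ribonuclease, and exposed to LPS (a bacterial cell wall component that activates macrophages) at 80 ng/ml for 12 h; the labels do not say how the depletion was done and give no undepleted or unstimulated cells. Nuclei were isolated and their extracts were incubated with rabbit IgG (the control, 1 library) or with an antibody against nucleolin (1 library), and the recovered RNA was sequenced to find the transcripts that nucleolin targets. The library that the labels title as nucleoplasmic RNAs is taken to be the nucleolin one, since its column carries the symbol NCL and the series' design names that antibody. There was 1 library per group, so no difference between them has a replicate check.

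Long non-coding RNAs are transcripts without a long open reading frame. Many stay in the nucleus, where some build nuclear bodies or act on chromatin, and others serve mainly as hosts whose introns release small nucleolar RNAs (snoRNAs). Nucleolin is an abundant protein of the nucleolus that binds ribosomal RNA precursors and also other nuclear and cytoplasmic RNAs. The nuclear exosome, of which mRrp6 is part, trims and degrades many non-coding transcripts.

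The name "long non-coding RNA" fitted only part of these genes. RefSeq's gene table for GRCm38.p6 (the mm10 assembly) held all 35 and typed 19 as lncRNA, 14 as transcribed pseudogenes, 1 as a pseudogene (Gm6682) and 1 as miscellaneous RNA (Slfn10-ps). Of the 19, 2 are readthrough transcripts of neighbouring coding genes (Raver1-fdx1l and Zfp91Cntf, now Gm38431 and Gm44505). They are therefore called detected non-coding genes here. Of the qualifying symbols, 14 of 284 transcribed pseudogenes (4.93%) and 19 of 1852 lncRNAs (1.03%) were detected; detection is what chose the genes, so these shares were not tested against each other. Several table symbols are older names: 6720401G13Rik is now Firre, 1810026B05Rik is Chaserr, 5330426P16Rik is Dubr and A730098P11Rik is Morf4l1-ps1.

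Markers of the labelled cell type were present, 8 of 15 macrophage markers with IgG and 13 with anti-nucleolin, with sums of 796 and 742 FPKM; Adgre1 (listed as Emr1) and Ptprc were at 0 in both. Of 19 digestive and epithelial markers 17 were above 0 with IgG, with a sum of 21749 FPKM, and none in the nucleolin library (Epcam and Lipf were at 0 in both). These are not transcripts known for a macrophage line, so this column goes against the labelled cells in that respect, and where they came from was not tested. For the macrophage markers, as in any bulk material, fewer cells of a type and less RNA per cell cannot be told apart. The libraries also differ in antibody and in scaling (23670 fragments for IgG and 60896 for nucleolin, as described below). What lies behind the marker counts was not tested.

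RefSeq starts of 17 of the 35 genes were at hand, 19 starts in all (GRCm38.p6), and a few are printed for the genes on which the description turns. The start of Malat1, the gene with the most reads recovered, lies at chr19:5802623-5802922 on the minus strand and is shown with the first 50 transcribed bases in capitals.
Malat1: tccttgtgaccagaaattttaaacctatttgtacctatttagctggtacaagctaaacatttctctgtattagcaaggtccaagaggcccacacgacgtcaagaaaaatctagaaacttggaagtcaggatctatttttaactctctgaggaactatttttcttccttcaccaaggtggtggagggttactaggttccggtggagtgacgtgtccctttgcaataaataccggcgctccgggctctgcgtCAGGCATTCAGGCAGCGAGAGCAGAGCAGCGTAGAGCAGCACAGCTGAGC
The known recognition element of nucleolin in ribosomal RNA precursors was searched for as TCCCGA or TCCCGG, with a first G also allowed in place of T, on the transcribed strand of those first 50 bases. It was found in 3 of the 19 starts, and in 6.44% of all 32851 starts of that length in the table. Those 3 are printed with the first match in capitals. Tug1 holds 2 matches, and the later one, also GCCCGG, is left in lower case. The first 50 transcribed bases lie at chr1:161034601-161034650 (plus strand) for the upstream start of Gas5, at chr11:3648765-3648814 (minus strand) for Tug1 and at chr12:73548483-73548532 (plus strand) for 2210039B01Rik.
Gas5, upstream start: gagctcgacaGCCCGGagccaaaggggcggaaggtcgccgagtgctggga
Tug1: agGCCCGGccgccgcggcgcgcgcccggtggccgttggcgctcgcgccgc
2210039B01Rik: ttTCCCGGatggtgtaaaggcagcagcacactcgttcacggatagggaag
Genes that host snoRNAs often start with a run of pyrimidines, the terminal oligopyrimidine motif. A C followed by at least 4 pyrimidines stood at 1 of the 19 starts, the downstream start of Gas5 (chr1:161035166-161035215, plus strand), and at 2.51% of all starts. Snhg12 (chr4:132308678-132308727, plus strand) has 6 pyrimidines in front, but its annotated first base is T. 2210039B01Rik, which is not on the list of snoRNA hosts, has as many, also with T first. The leading pyrimidines are in capitals.
Gas5, downstream start: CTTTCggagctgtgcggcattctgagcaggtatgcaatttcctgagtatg
Snhg12: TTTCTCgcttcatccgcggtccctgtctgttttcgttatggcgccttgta
These matches describe the sequence in short windows and say nothing about binding, and most of each transcript was not searched.

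The depth behind these values can be read from the FPKM. Where a gene has no introns its span is its transcript length, and its FPKM is then a whole number of reads times a constant, divided by the length less an offset. Among genes with 1 row, 21 with IgG and 9 with anti-nucleolin lay on a common line within 0.5%, the value of 1 read. The line was fitted on these genes. They include 9530091C08Rik and Gm13363 with IgG, and Olfr856-ps1 and Kcnq1ot1 with anti-nucleolin. The 1.00 read given below for these named genes is thus set by the fit. The line gave a scaling of 23670 fragments for the IgG library and 60896 for the nucleolin library, and offsets of 203 and 234 bases. Only 3 genes examined with IgG and 2 with anti-nucleolin lay clearly under that line, and Gm6682, A730098P11Rik and Tmem181b-ps of the 35 were among them. Equal reads therefore gave 2.57 times more FPKM with IgG than in the nucleolin library on a long transcript.

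**Figure D1:**
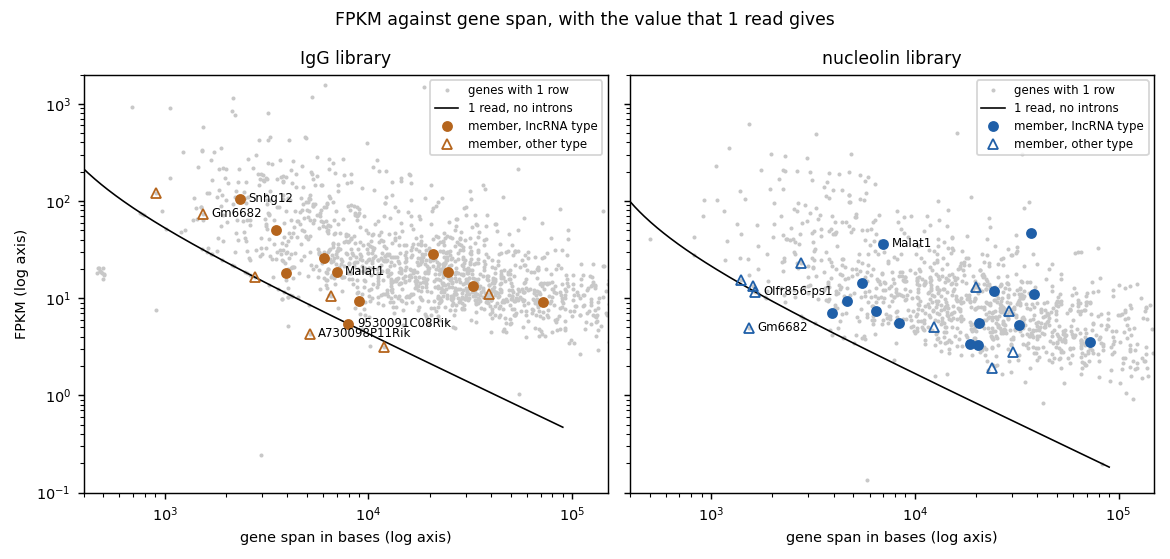
FPKM (log axis) against gene span in bases (log axis) for genes with 1 row in each library (grey), with the line that 1 read gives on a transcript without introns. Coloured points are the detected non-coding genes. 9530091C08Rik and Olfr856-ps1 lie on the line, which was fitted with them among others. Malat1 lies above it in both libraries, and A730098P11Rik lies under it at 0.500 of a read. Genes with introns lie above the line even at 1 read, since their span is longer than their transcript.

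Of the 35 genes, 11 reached 0.1 FPKM with IgG only, 17 in the nucleolin library only and 7 in both. Over all 3194 genes compared these shares were 46.0% in IgG only, 37.1% in nucleolin only and 16.8% in both. On the scale log2((nucleolin FPKM + 1)/(IgG FPKM + 1)), 17 of the 35 stood 2-fold or more higher with anti-nucleolin, where 37.8% of all genes compared did. On the other side 16 stood 2-fold or more lower, where 56.7% of all genes compared did. With a pseudocount of 1 FPKM, a gene at 1 FPKM or more and at 0 in the other library always counts as 2-fold. The 17 higher genes are thus the 17 in the nucleolin library only, and the 16 lower include the 11 in IgG only. These counts largely repeat the presence counts. The median difference was 0.93, against -1.27 over all genes compared. That median is the value of Malat1, because the genes listed in only 1 library lie on either side of it. Over the 7 genes in both libraries the median was -1.20, against -1.19 over all 538 genes in both. Where present, the genes had a median level of 17.2 FPKM with IgG and 7.40 FPKM with anti-nucleolin, against 18.4 and 7.94 FPKM over all genes compared.

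By type, the 19 genes typed as lncRNA split into 5 in the IgG library only, 6 in both and 8 in the nucleolin library only. The other 16 split into 6, 1 and 9. All 5 genes whose table name ends as a pseudogene were in 1 library only, 4 of them in the nucleolin library. Over all genes compared, 46.0% were in IgG only, 37.1% in nucleolin only and 16.8% in both. The 5 were sorted by older names, which leaves out A730098P11Rik (Morf4l1-ps1), listed in IgG only. By RefSeq type, the 14 transcribed pseudogenes split into 6 in the IgG library only and 8 in the nucleolin library only. With so few genes and 1 library per group these splits have no test.

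**Figure D2:**
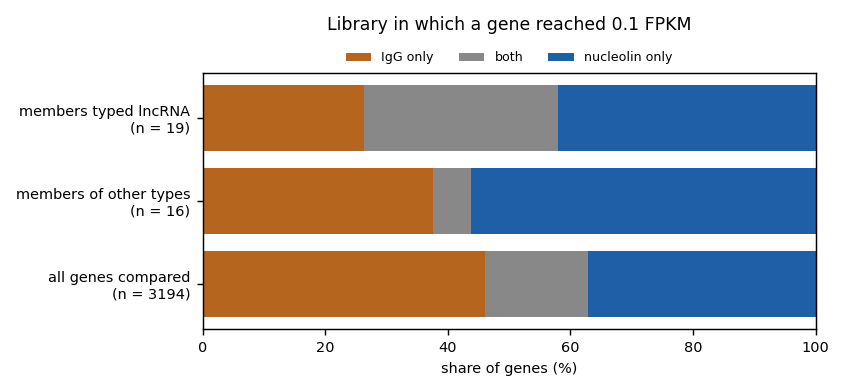
Share of genes (%) that reached 0.1 FPKM with IgG only, in both or in the nucleolin library only, for the 19 genes typed as lncRNA, the 16 of other types and all 3194 genes compared. The nucleolin-only share is 42.1%, 56.3% and 37.1% from top to bottom.

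**Figure D3:**
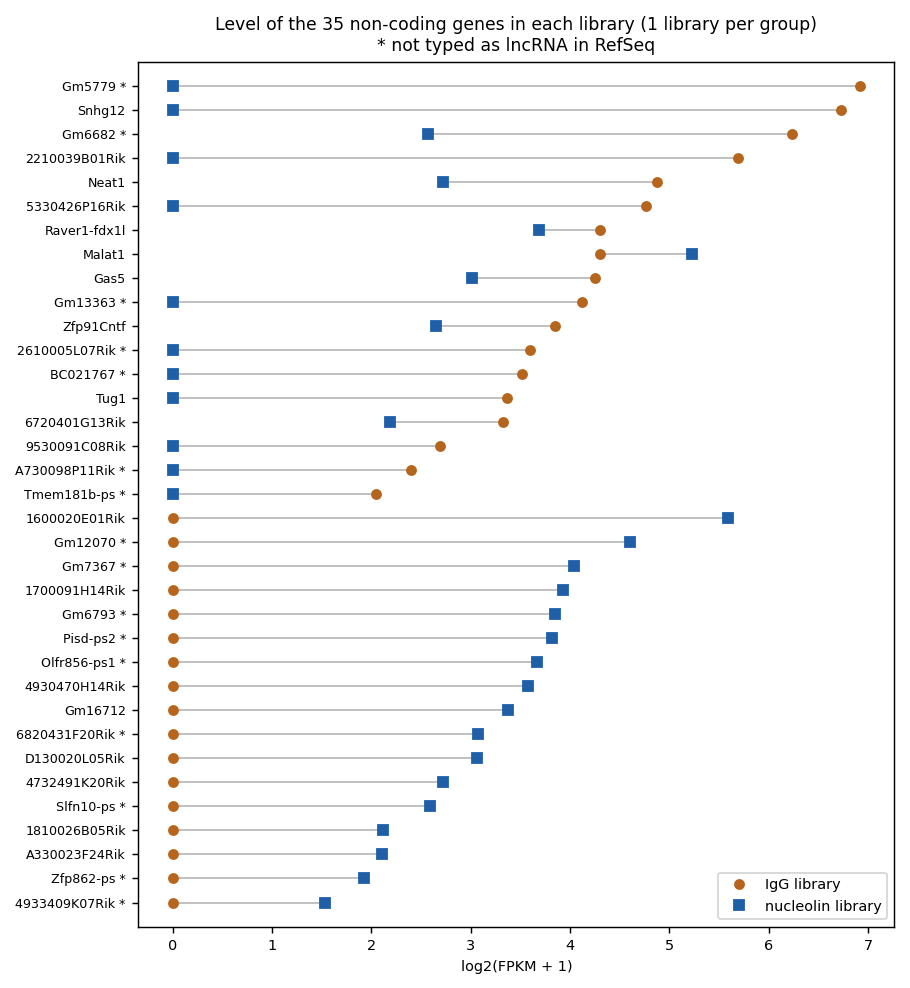
Level of each of the 35 genes on the log2(FPKM + 1) scale in the IgG library (circles) and the nucleolin library (squares), joined by a line; an asterisk marks genes not typed as lncRNA. In 28 genes 1 of the libraries is at 0, and of the 7 others only Malat1 is higher in the nucleolin library as deposited, while after centring on all genes Gas5, Firre, Zfp91Cntf and Raver1-fdx1l also lie above 0.

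Malat1, the abundant RNA of nuclear speckles, had the most reads of the genes whose reads could be recovered in both libraries. It lies on chromosome 19 from 5795690 to 5802672. It was at 18.7 FPKM with IgG and 36.5 FPKM with anti-nucleolin. With its span of 6983 bases, and no introns, these values come to 3.00 and 15.0 reads, that is 3 and 15. The FPKM ratio was 1.95, with an exact (Clopper-Pearson) 95% interval from 0.552 to 10.5; it covers counting error only, as do all intervals here. The read ratio was 5, with an interval from 1.41 to 26.9. Equal reads is not a value of no change, since the scaling of the libraries differs 2.57-fold, and with 1 library per group neither ratio was tested.

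Neat1, the architectural RNA of paraspeckles and a neighbour of Malat1, went the other way. It lies on chromosome 19 from 5824708 to 5845480 and was at 28.4 FPKM with IgG and 5.58 FPKM with anti-nucleolin. Because the length offsets of the libraries differ, a gene with 1 row in both libraries has a pair of read numbers at which both values give the same transcript length. For Neat1 the only such pair (up to 20 reads each, lengths within 2 bases) was 2 IgG reads and 1 nucleolin read on a row of 3177 bases. The row is thus much shorter than the gene's span of 20773 bases, so most of the annotated locus is not covered by this value. The FPKM ratio of 0.196 had an interval from 0.00333 to 3.77.

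Firre, an X-linked RNA known for organising chromatin contacts in the nucleus, was present in both libraries under its older symbol 6720401G13Rik. It lies on chromosome X from 50563120 to 50635321 and was at 9.05 FPKM with IgG and 3.54 FPKM with anti-nucleolin. Both values fit 1 read on a transcript of 4872 bases, nearly all of it in 1 of its 2 rows. Equal reads gave a log2 difference of -1.15, which centring on all genes turned to 0.12, and the FPKM ratio of 0.391 had an interval from 0.00499 to 30.7.

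Tug1, a widely expressed nuclear and cytoplasmic RNA, was listed at 9.33 FPKM with IgG and at 0 with anti-nucleolin. It lies on chromosome 11 from 3639785 to 3648814, a span of 9030 bases that has room for at most 1 whole IgG read at this value. Kcnq1ot1, the antisense RNA of an imprinted cluster, fell just short of the level required. It was at 0.197 FPKM with anti-nucleolin and 0 with IgG, which is 1.00 read on its span of 83437 bases on chromosome 7. A row with 1 read reaches 1 FPKM only if it is shorter than 42450 bases in the IgG library or 16656 bases in the nucleolin library, so the length of Kcnq1ot1 and not its read number set it apart from the genes with 1 read. The symbol Fth1, listed with a non-coding row only, was the other gene under the requirement, at 0.00102 and 0.000227 FPKM. The lowest genes inside it were 4933409K07Rik and Zfp862-ps, at 1.90 and 2.79 FPKM with anti-nucleolin. Of 21 listed nuclear-retained or imprinted long non-coding RNAs, all in the table, 4 were detected (Malat1, Neat1, Firre and Tug1), against 1.56% of all qualifying symbols. The list was drawn up with earlier results of these data known, so the shares were not tested against each other. Of the 4, none was 2-fold or more higher and 3 were lower with anti-nucleolin as deposited, where 37.8% and 56.7% of all genes compared were. Of the 21, 16 were at 0 in both libraries. After centring on all genes Malat1, at 2.20, was over 2-fold higher, Tug1, at -2.10, was over 2-fold lower, and Neat1 (-0.89) and Firre (0.12) were under 2-fold.

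Among snoRNA host genes, 2 of 21 were detected, against 1.56% of all qualifying symbols. This list too was drawn up with earlier results known, so the shares were not tested against each other. Both genes were more than 2-fold lower with anti-nucleolin as deposited, where 56.7% of all genes compared were 2-fold or more lower. Gas5, which accumulates when growth stops and hosts many box C/D snoRNAs, lies on chromosome 1 from 161034601 to 161038539 and was at 18.0 FPKM with IgG and 7.08 FPKM with anti-nucleolin. The only read pair was 1 and 1, on a row of 2554 bases, and the FPKM ratio of 0.394 had an interval from 0.00502 to 30.9. The log2 difference of -1.23 turned to 0.04 after centring. Snhg12, on chromosome 4 from 132308678 to 132311024, was at 105 FPKM with IgG and 0 with anti-nucleolin. This is the highest level of any gene typed as lncRNA here, yet it equals 1 read on a row of 607 bases and the whole span holds no more than 5 reads. The 4 snoRNA genes inside Snhg12 and the 1 inside Gas5 that the table lists were at 0 in both libraries.

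The other lncRNAs of the IgG library were 2210039B01Rik at 50.5 FPKM, 5330426P16Rik (Dubr, a regulator of its neighbouring gene) at 26.2 FPKM and 9530091C08Rik at 5.43 FPKM. All were at 0 with anti-nucleolin. 9530091C08Rik, on chromosome 9 from 68765346 to 68773322 within the span of the nuclear receptor gene Rora, held 1.00 read on its full span of 7977 bases. 2210039B01Rik would hold 1 read on a row of 1040 bases and 5330426P16Rik on a row of 1815 bases, and their spans leave room for at most 3 reads each.

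In the nucleolin library, 8 lncRNAs were listed that were at 0 with IgG, from 3.31 to 47.0 FPKM. The highest was 1600020E01Rik, on chromosome 6 from 86527330 to 86564449, at 47.0 FPKM, nearly all in 1 of its 2 rows. This value equals 1 read on a row of 583 bases. The row length is not known, however, and the span of 37120 bases has room for up to 105 reads. Next came 1700091H14Rik at 14.2 FPKM, 4930470H14Rik at 10.9 FPKM, Gm16712 at 9.41 FPKM, D130020L05Rik at 7.37 FPKM and 4732491K20Rik at 5.59 FPKM. Chaserr (1810026B05Rik), an RNA next to the chromatin remodeller gene Chd2 whose level it restrains, was at 3.35 FPKM, while Chd2 was at 4.76 FPKM with IgG and 0 with anti-nucleolin. A330023F24Rik, which spans the microRNA genes Mir29b-2 and Mir29c, was at 3.31 FPKM, and both microRNA genes were at 0. At 1 read these 8 rows would be 583 to 5195 bases long.

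A count of 0 was taken to allow an expected number of up to 3 reads, a limit that was set and not estimated here. On the FPKM scale a gene absent from the nucleolin library needs at least 2 IgG reads to exceed that limit. A gene absent from the IgG library needs at least 8 nucleolin reads. The limit leaves out the counting error of the reads that were seen, so exceeding it does not show a difference. Of the 28 genes in 1 library, 2 were under 1 read and 7 had room for at most 1 whole read. The other 19 have a span long enough for more, and their row lengths are not known. Gm5779, a pseudogene on chromosome 10 from 75352055 to 75352961, was the highest of all at 120.0 FPKM with IgG and 0 with anti-nucleolin. With no introns assumed, its span of 907 bases gave 1.998, that is 2 reads. On this span a count of 0 with anti-nucleolin allows up to 73.2 FPKM. The 120.0 FPKM lies above that value but itself rests on 2 reads, so whether the libraries differ cannot be told from these values.

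Of the 15 genes typed as pseudogenes, 3 were under 1 read in at least 1 library, while others, such as Gm13363 and Olfr856-ps1, held 1.00 read. A730098P11Rik (Morf4l1-ps1), on chromosome 16 from 24529314 to 24534472, was at 4.26 FPKM with IgG, which is 0.500 of a read on its span, and 0 with anti-nucleolin. Morf4l1, the coding gene it is named for, was at 12.7 and 0 FPKM. Tmem181b-ps, at 3.12 FPKM with IgG, held at most 0.872 of a read. Its relative Tmem181a was at 6.70 and 3.94 FPKM. Gm6682, at 74.1 FPKM with IgG and 4.94 FPKM with anti-nucleolin, came to 2.35 and 0.393 reads on its span of 1543 bases. Such values are not whole reads, and how reads that match several places were handled is not stated, so the levels of these genes are uncertain. Gm6682 was the only gene of another type than lncRNA in both libraries, and its log2 difference was -3.66.

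The remaining pseudogenes of the IgG library were Gm13363 (16.4 FPKM, 1.00 read on its span), 2610005L07Rik (11.1 FPKM) and BC021767 (10.4 FPKM). Those of the nucleolin library reached from 1.90 to 23.3 FPKM. Gm12070 was the highest at 23.3 FPKM, followed by Gm7367 at 15.4 FPKM, Gm6793 at 13.4 FPKM, Pisd-ps2 at 13.1 FPKM, Olfr856-ps1 at 11.7 FPKM and 6820431F20Rik at 7.42 FPKM. Slfn10-ps, typed as miscellaneous RNA, was at 5.03 FPKM with anti-nucleolin. Olfr856-ps1 held 1.00 read, and Gm7367 and Gm6793 at most 1 whole read each. Pisd, the mitochondrial phosphatidylserine decarboxylase gene that Pisd-ps2 is named for, was at 0 with IgG and 8.57 FPKM with anti-nucleolin, the same library as its pseudogene. 2610005L07Rik and 6820431F20Rik lie close together on chromosome 8 and each was listed in a different library. At 1 read their rows would be 4009 and 2447 bases long, and their spans leave room for at most 10 and 13 reads. How reads that match several places were handled is not stated, so the library in which each was listed is uncertain.

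The readthrough transcripts overlap coding genes. Raver1-fdx1l was at 18.7 FPKM with IgG and 11.9 FPKM with anti-nucleolin, and no whole pair of reads up to 20 gave a common length. Its log2 difference of -0.62 turned to 0.65 after centring. Raver1, which it contains, was at 0.000943 and 0.00216 FPKM, and Fdx1l at 55.4 and 0 FPKM. Zfp91Cntf was at 13.4 and 5.27 FPKM, the pair 1 and 1 on a row of 3350 bases, a log2 difference of -1.20 that turned to 0.07 after centring. Zfp91, a coding gene it contains, was at 0.000158 and 0.000062 FPKM. Lpxn, which overlaps the same span, was at 28.7 and 11.4 FPKM. In all, 4 of the 35 genes overlapped the span of another gene above 0: these readthroughs, Gm16712 (over Ebi3, a cytokine subunit gene at 0 and 17.5 FPKM) and Chaserr (with Chd2). A readthrough shares sequence with the genes it contains, and the use of strand is not given in the sources used here. Reads of overlapping genes therefore cannot be told apart.

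**Figure D4:**
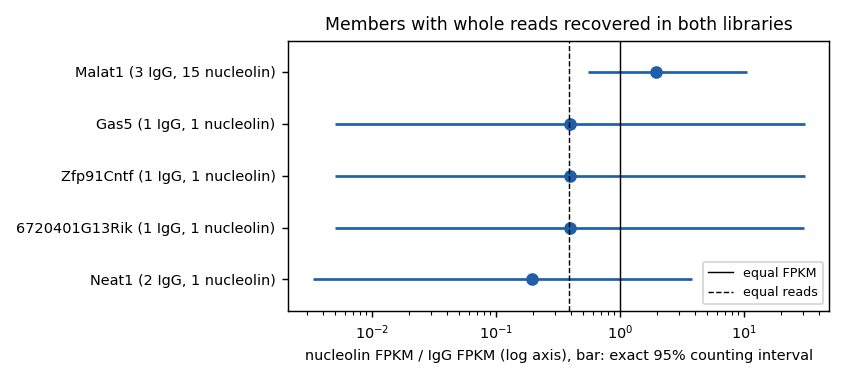
Ratio of nucleolin FPKM to IgG FPKM (log axis) for the 5 genes whose whole reads were recovered in both libraries, with exact 95% counting intervals, the line of equal FPKM (solid) and of equal reads (dashed). The ratio is 1.95 for Malat1 and 0.196 for Neat1, and the other genes lie near the dashed line at 1 read in each library; the intervals cover counting error only, and the dashed line is not a value of no change.

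Of 16 lncRNAs on a list drawn up as LPS-regulated or macrophage genes, 14 were in the table. Among them were Ptgs2os2 and Mirt2, and also Nron, Dnm3os and Bvht. All 14 were at 0 in both libraries. Since only 1.56% of all qualifying symbols were detected, this count says nothing particular about that list. None of 16 small structured RNAs in the table was above 0 either. The 11 non-coding genes listed only in the IgG library stand beside the digestive and epithelial transcripts given above, whose part in the result was not tested. Summed over the 35 genes, FPKM made up 0.285% of the IgG total and 0.0746% of the nucleolin total. Over all genes compared, 1 gene held 232751 of the 361893 FPKM summed with anti-nucleolin. With IgG the highest gene held 70760.5 of 190321 FPKM. The shares thus depend on the top gene of each library, and their difference was not tested.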

How the data were processed

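RNA from 1 IgG and 1 nucleolin immunoprecipitation was measured. The deposited table gives FPKM for 33529 transcript rows, per the file headers, and FastQC 0.10.0, Trimmomatic 0.32 and mm10 were used, per the submitters' processing notes. Which aligner and quantification tool were used, and how multiply aligned reads were handled, is not given in the sources used here. Rows without a symbol (56) were left out; they held 0.0364% and 0.0794% of the summed FPKM. Rows were summed per symbol. A pseudocount of 1 FPKM was used for log2 differences, which understates the change of low genes, and a fold of 2 was counted. A gene at 0.1 FPKM or more was called present.

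The value of 1 read was fitted on genes with 1 row and a span of 700 to 90000 bases, without the Hist, Mup, Rpl and Rps families, and the fit was tested on simulated data. This reading of the FPKM values rests on RefSeq spans and was chosen after seeing the data. Python 3.11.15, pandas 2.3.3, numpy 2.4.6, scipy 1.17.1 and matplotlib 3.10.9 were used. The named genes were those in both libraries, the 12 highest in each library alone and list members; other members were named after their values were seen. The members and lists were chosen with earlier results of these data known.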

Additional observations from a re-analysis of the deposited data

How the results depend on the processing

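The counts of genes at least 2-fold higher (17) and lower (16) stayed within 1.5 times under pseudocounts of 0.1 and 5 FPKM, with no minimum, after centring on all genes, with 1 read set equal and with the highest row per gene. The 28 genes at 0 in 1 library cannot change direction with the pseudocount, the read scaling or the row used. This stability was therefore largely set by how the genes were chosen. With a pseudocount of 5 FPKM 13 were higher and 11 lower, after centring 18 and 11, and with 1 read set equal 18 and 12. At a minimum of 10 FPKM 21 genes remained, 8 higher and 11 lower, and 7 were in the IgG library only and 8 in the nucleolin library only; the higher minimum tests fewer genes. Among the 19 genes typed as lncRNA 8 were higher and 9 lower, 5 in the IgG library only and 8 in the nucleolin library only.

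The median log2 difference of 0.93 moved with nearly every choice and carries little weight. It was 0.96 and 0.47 with pseudocounts of 0.1 and 5 FPKM, -1.20 at a minimum of 10 FPKM, 0.26 with no minimum, 2.20 after centring, 2.27 with 1 read set equal, -0.62 for the genes typed as lncRNA and 1.73 without the 3 genes under 1 read, an alternative chosen after seeing the data.

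Centring took away the median of all genes, -1.27 on the log2 scale, with 1283 genes then higher and 1485 lower of 3194; 18 and 11 of the 35 were. In all, 3 genes at equal reads changed sign: Gas5 came to 0.036 after centring and 0.018 with 1 read set equal, Zfp91Cntf to 0.065 and 0.013, and Firre (6720401G13Rik) to 0.12 and 0.0087. Raver1-fdx1l, under 2-fold as deposited and without a read pair, came to 0.65 after centring. No paired analysis was possible because each group has 1 library. Depth limits every value here: of the 28 genes in 1 library 2 were under 1 read, 7 had room for at most 1 whole read, and the row lengths of the other 19 are not known.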
